A study of Xenopus laevis with 42 samples.

Results

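The genes described here encode subunits of voltage-gated calcium channels, voltage-gated sodium channels and several classes of potassium channel, followed in a cell lineage of the frog Xenopus laevis from the 8-cell embryo to the mid neurula. A row of the expression tables was taken when its gene name, without the final L or S that marks the homeolog of the long or short subgenome, began with cacna, cacnb, cacng, kcn or scn in the form used for these families, and when it reached 1 TPM in at least 1 of 14 columns. TPM is an abundance scaled to a fixed total and by transcript length, so that levels of different rows can be set side by side. Of 44962 rows, 233 carry such a name and 97 of these reached 1 TPM, namely 24 of 48 calcium channel rows, 8 of 18 sodium channel rows and 65 of 167 potassium channel rows. The other 136 stayed under 1 TPM in every column. Just under the minimum were cacnb4.L at 0.964, kcng4.S at 0.975 and kcnn4.L at 0.992 TPM in their highest column, and just above it were scn4b.L at 1.02, kcnq3.S at 1.03 and scn1a.S at 1.05 TPM.

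The lineage is that of D1, the dorsal animal blastomere of the 8-cell embryo, whose descendants contribute to the neural plate. In one tissue, called progeny here, D1 received a fluorescent dye and its labelled descendants were taken from the embryo. In the other, called explants here, D1 was cut away and developed apart from the embryo. Both were sampled at 8-cell (Nieuwkoop-Faber stage 4, 2 hours 15 minutes), 16-cell (stage 5, 2 hours 45 minutes), 32-cell (stage 6, 3 hours), blastula (stage 8, 5 hours), gastrula (stage 11, 11 hours), early neurula (stage 14, 16 hours) and mid neurula (stage 17, 18 hours), which gives 14 groups of 3 samples, 1 from each of 3 frogs. The sources used here give no strain, genotype or culture conditions. The dye and the dissection of progeny, and the isolation of explants, differ between the tissues at every stage, so they cannot be told apart from the tissue.

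Each group is 1 pooled column, so there is no spread between frogs and no difference below has a replicate check. The word rose, fell, higher or lower is used of rows that moved 2-fold or more, that is by 1 or more in log2(TPM + 1), a rule of size without a test. The pseudocount of 1 TPM understates changes of rows with low levels. Depth is unknown, and the tables of the 2 tissues were scaled separately, so each difference between tissues, given as explant minus progeny in log2(TPM + 1), sets levels across tables. In bulk tissue, fewer cells of a type and less RNA per cell cannot be told apart. A row entered through its highest column and so had to differ where it was near 0 elsewhere, and the share of all rows past the same limits is given beside most counts of channel rows. Columns summed to between 995987 and 999092 TPM, and the 97 rows together held between 203 and 605 TPM of a column. Where 7 values are listed, they run from 8-cell to mid neurula. The L and S copies of a gene are alike in sequence, so either row may hold reads of the other.

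A voltage-gated calcium or sodium channel has a large pore subunit, which opens when the membrane depolarises, and smaller partner subunits that bring it to the surface and tune its gating. Potassium channels are more varied, with voltage-gated pores, pores opened by internal calcium or sodium, inward rectifiers, and 2-pore channels that leak potassium at rest and set the resting potential. In the frog embryo the first neurons and the first somitic muscle appear around the neurula stages, while earlier cells are cleaving blastomeres that live on maternal RNA until the blastula. The roles given below are known mainly from mammals.

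Channel rows were sorted by their progeny values. Those at 1 TPM or more in each of the 4 progeny columns from 8-cell to blastula are called present early, and those higher at early or mid neurula than at gastrula are called rising. Of the 97 rows, 31 were present early, where 64.8% of all 26351 rows that reached 1 TPM were, and 30 were rising, where 27.9% of all rows were. Both sets share 3 rows, cacna2d1.L, kcnh7.L and kcnq1.L, and 39 rows were in neither. Of the 31 early rows, 24 encode potassium channel subunits, 6 calcium channel subunits and 1 a sodium channel subunit. Of the 30 rising rows, 13 encode calcium, 6 sodium and 11 potassium channel subunits. Nearest the early limit were kcnk2.L, kcnt2.L and cacna2d3.L outside it, with lowest cleavage values of 0.852, 0.863 and 0.882 TPM, and kcnh7.L, cacna1i.L and kcnip4.S inside it, with 1.08, 1.12 and 1.36 TPM. Nearest the limit of the rise were kcnc1.S, kcnk1.S and cacna1c.L outside it, with log2 rises over gastrula of 0.94, 0.95 and 0.98, and scn1a.S, cacna1b.S and kcnj2.S inside it, with 1.04, 1.07 and 1.08.

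**Figure D1:**
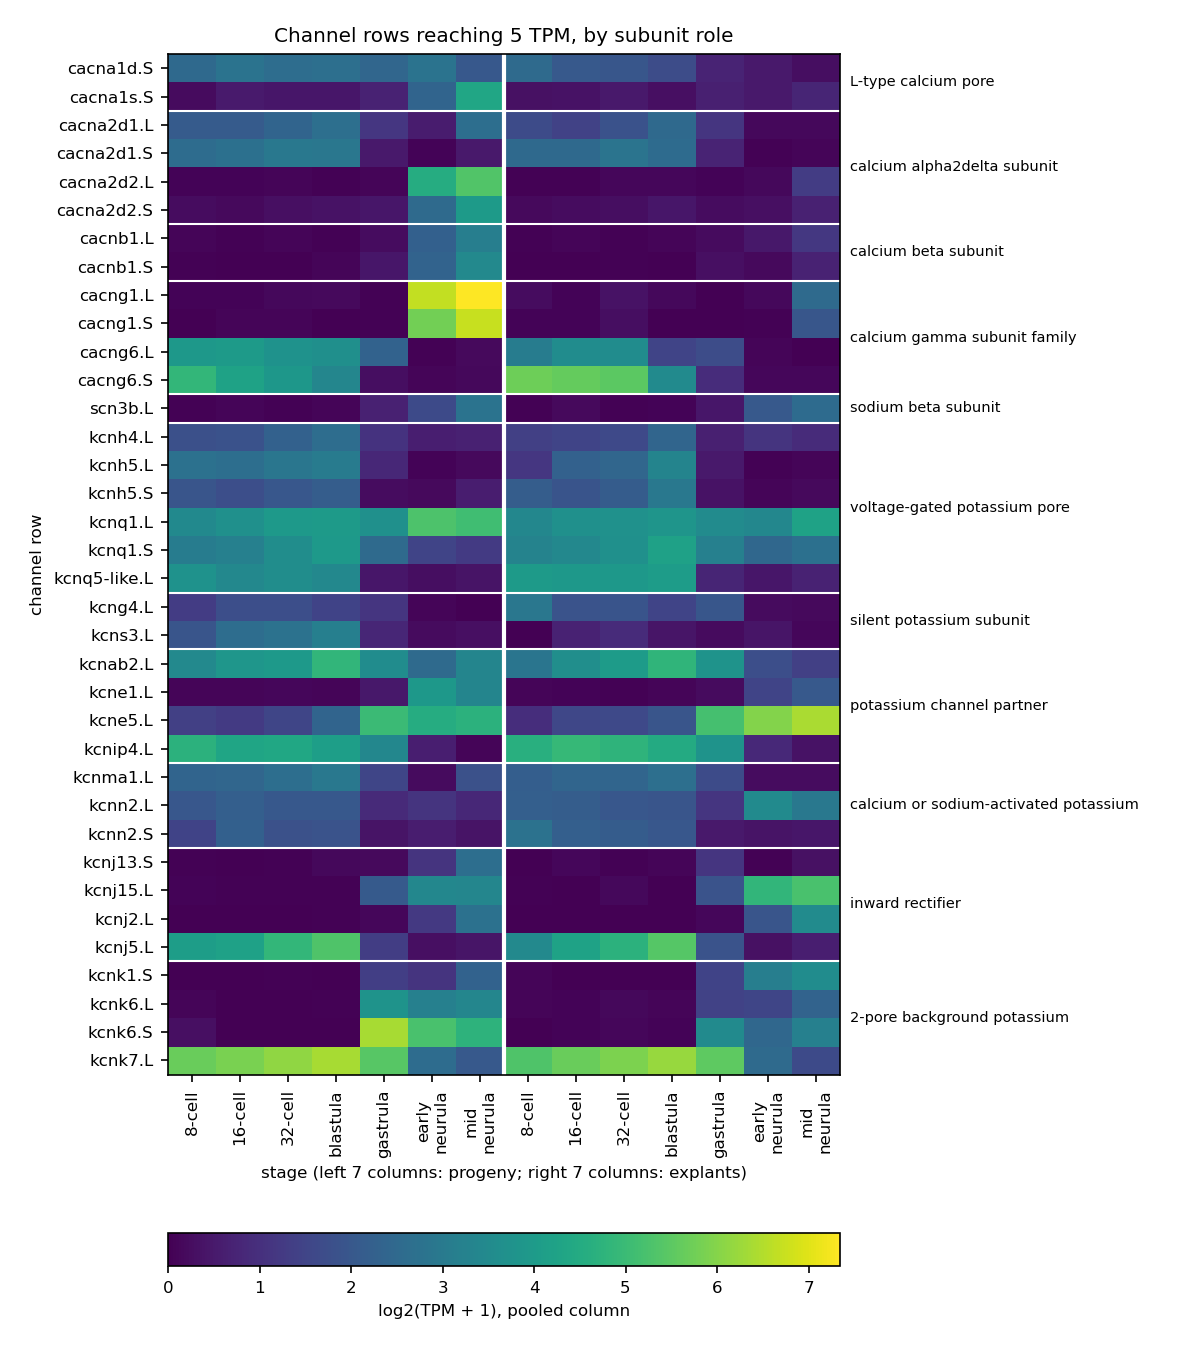
Level of 36 channel rows that reached 5 TPM, as log2(TPM + 1) in colour, with 1 row per gene grouped by subunit role and 1 pooled column per stage, progeny left of the white line and explants right of it. Rows such as kcnk7.L and kcnj5.L are bright at the first 4 stages of both tissues, cacng1.L and cacng1.S are brightest at the neurula stages of progeny, and kcnj15.L and kcne5.L are brighter at the neurula stages of explants.

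The highest early level among channel rows was that of kcnk7.L, a 2-pore channel subunit of the TWIK group. It read 49.6, 57.7, 69.4, 82.2, 42.1, 5.04 and 3.18 TPM in progeny and 39.3, 50.2, 58.3, 73.1, 44.99, 4.77 and 2.16 TPM in explants. The level in TPM climbed through cleavage, was still high at gastrula and was low at both neurula stages in both tissues. The climb depends on the scaling. The median-of-ratios factor, by which a column is divided, also went from 0.96 at 8-cell to 1.41 at blastula in progeny. In explants it went from 0.79 to 1.44. Its change from blastula to mid neurula was -4.32 in progeny and -4.55 in explants on the log2 scale. No other 2-pore row was present early. The nearest was kcnk2.L, of the mechanically and thermally sensitive TREK group, which lay between 0.852 and 1.20 TPM in progeny from 8-cell to blastula.

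Next among early rows, by the highest progeny level up to blastula, was kcnj5.L, a subunit of the inward rectifiers that G proteins open. It read 15.9, 17.4, 27.9, 39.3, 1.53, 0.238 and 0.323 TPM in progeny and 9.998, 17.7, 25.6, 41.8, 2.67, 0.245 and 0.527 TPM in explants. The level in TPM climbed by more than 2-fold from 8-cell to blastula in both tissues. With columns rescaled by the median of ratios, this climb was smaller in both and under 2-fold in progeny. The level then dropped at gastrula, with a change of -3.99 in progeny and -3.54 in explants from blastula to gastrula on the log2 scale. Its neighbour in the RefSeq annotation of assembly Xenopus_laevis_v10.1 is kcnj1.L, with no gene between them, and kcnj1.L stayed at or under 0.120 TPM in every progeny column and at or under 1.30 TPM in explants.

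Among voltage-gated potassium pores, the KCNQ and the KCNH (ether-à-go-go) groups made up the early rows. The row kcnq5-like.L, of the group that carries the M-current of neurons, read 12.5, 9.78, 11.05, 9.81, 0.356, 0.201 and 0.297 TPM in progeny and 14.9, 14.2, 13.96, 15.8, 0.694, 0.354 and 0.623 TPM in explants. The early KCNH rows were kcnh4.L, kcnh5.L, kcnh5.S, kcnh7.L and kcnh7.S, whose blastula levels in progeny were 5.17, 7.31, 3.52, 1.61 and 3.03 TPM. All 5 were lower at gastrula than at blastula in explants, and 4 of them in progeny, where kcnh7.L changed by -0.98. Rows of the Shaker group (kcna), of kcnc and of kcnd were not among the early rows, the nearest being kcnc4-like.L at 0.782 to 1.45 TPM in the progeny cleavage columns.

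Partner subunits of voltage-gated potassium channels made up 6 of the early rows. These were 6 of 10 partner rows, where 64.8% of all rows were present early, so the class was not early more often than rows in general. The row kcnip4.L, encoding a calcium-binding protein that joins Kv4 pores, read 25.1, 18.9, 19.6, 16.3, 9.60, 0.546 and 0.0728 TPM in progeny and 24.05, 29.1, 26.5, 21.3, 12.7, 0.800 and 0.281 TPM in explants. It was highest in cleavage and still present at gastrula, while the only Kv4 pore row among the 97, kcnd3.L, did not exceed 1.24 TPM. The row kcnab2.L, encoding a cytoplasmic beta subunit of Shaker channels, read 10.1, 13.4, 14.5, 27.5, 11.00, 4.84 and 9.06 TPM in progeny and 6.24, 11.4, 15.3, 27.1, 12.7, 2.38 and 1.62 TPM in explants. It peaked at blastula in both tissues, when no Shaker pore row (kcna1, kcna2, kcna4 and kcna5) reached 1 TPM. At mid neurula progeny held 9.06 TPM of kcnab2.L against 1.62 TPM in explants.

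Potassium channels opened by internal ions included low rows that were present early. Of 10 such rows, 6 were present early, where 64.8% of all rows were, so the class was not early more often than rows in general. The 6 were kcnma1.L (the BK pore), kcnmb4.L (a BK beta subunit), kcnn2.L, kcnn2.S and kcnn3.S (small-conductance pores gated through calmodulin) and kcnt1.L (a sodium-activated pore). Their progeny values from 8-cell to blastula lay between 1.78 and 6.71 TPM. From blastula to mid neurula 7 of the 10 fell and 1 rose in progeny (32.3% and 29.6% of all rows), and 5 fell and 2 rose in explants (34.3% and 26.4%).

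Early calcium channel rows covered pores, alpha2delta partners and the gamma family. The L-type pore cacna1d.S, a channel that opens at relatively negative voltages, read 4.69, 5.93, 5.23, 5.41, 4.37, 6.02 and 3.07 TPM in progeny and 4.85, 3.16, 2.94, 2.30, 0.662, 0.406 and 0.220 TPM in explants. Progeny thus kept it near its cleavage level up to the early neurula, while explants were lower at gastrula, with a difference of -1.69, and at mid neurula, with -1.74. The alpha2delta rows cacna2d1.L and cacna2d1.S, whose product carries pores to the membrane, stood at 5.37 and 6.46 TPM at the progeny blastula. The T-type pore cacna1i.L stood at 1.12 to 2.05 TPM from 8-cell to blastula in progeny. No row of a calcium channel beta subunit was present early, the nearest being cacnb2.S at 0.649 to 1.41 TPM.

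The gamma family member cacng6 gave the highest early calcium channel levels. Its row cacng6.S read 27.9, 17.9, 13.7, 9.35, 0.217, 0.0707 and 0.116 TPM in progeny and 51.4, 48.3, 44.2, 10.4, 0.922, 0.102 and 0.0968 TPM in explants. Both tissues started high and were near 0 by the neurula, and explants were the higher of the pair by 1.38 at 16-cell and 1.62 at 32-cell. The row cacng6.L read 14.1, 14.9, 12.4, 11.6, 3.91, 0.0279 and 0.142 TPM in progeny and 7.50, 10.9, 10.8, 1.82, 2.24, 0.0657 and 0 TPM in explants, and it was lower in explants at blastula, with a difference of -2.16. With the homeologs summed, the cacng6 difference was 0.83 at 16-cell and -0.74 at blastula, both under 2-fold, and 1.04 at 32-cell.

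Few channel rows differed between the tissues during cleavage. In explants 2 rows were higher and 5 lower at 8-cell (1.9% and 4.16% of all rows), 1 higher and 2 lower at 16-cell (1.09% and 1.47%), 1 higher and 3 lower at 32-cell (1.32% and 1.64%), and 0 higher and 3 lower at blastula (1.43% and 1.46%). The silent subunit kcns3.L, which modifies Kv2 pores, was lower in explants at each of these stages, with 2.81, 5.20, 5.87 and 7.92 TPM in progeny against 0.0185, 0.641, 0.881 and 0.334 TPM in explants. The BK beta subunit row kcnmb4.L was lower at each as well, with 3.30, 3.26, 3.44 and 2.87 TPM against 0.180, 0.869, 0.804 and 0.129 TPM. The 8-cell explant column stood somewhat apart: from 8-cell to 32-cell 4 channel rows rose in explants (7.9% of all rows rose and 0.603% fell) and 1 in progeny (0.979% and 0.565%), and from 16-cell to 32-cell 1 rose in explants (0.205% and 0.0835%). With columns rescaled by the median of ratios, 1 row rose and 2 fell in explants from 8-cell to 32-cell, and no share of all rows is given for that scaling. From 32-cell to blastula 1 row rose in progeny (2.12% of all rows rose and 0.448% fell), and in explants 1 rose and 2 fell (5.31% and 0.82%).

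The early set was largely gone by the neurula. From blastula to gastrula 25 channel rows fell in progeny (29.5% of all rows) and 9 rose (16.1%), and 21 fell (27.9%) and 14 rose (14.7%) in explants. With columns rescaled by the median of ratios, 14 fell and 9 rose in progeny and 11 fell and 14 rose in explants. The shares of all rows given here are those before rescaling, so they cannot be set beside the rescaled counts. Of the 31 early rows, 9 were still at 1 TPM or more at mid neurula in progeny, which is 29.0%, against 90.2% of all rows that were present early by the same rule. This measure is a fixed level, and the channel rows started lower, so a smaller fall takes them under it. For early rows not also rising, the median at the progeny blastula was 5.29 TPM over 28 channel rows and 28.7 TPM over all 13646 rows. In the explant table, which did not enter the sorting, 24 of the 31 were at 1 TPM or more in all 4 cleavage columns. That is 77.4%, against 94.2% of all early rows, and it is again a fixed level. In explants 25 fell from blastula to mid neurula, which is 80.6% against 50.1% of all early rows, and 2 rose, kcne5.L and kcnn2.L. Summed over the 13 rows of the maternal oocyte markers, such as the maternal cyclin ccna1, the level went from 8863 TPM at blastula to 40.9 TPM at mid neurula in progeny and from 8878 to 172 TPM in explants. All 13 fell in both tissues, and the part of maternal RNA loss in the fall of the channel rows was not tested.

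**Figure D2:**
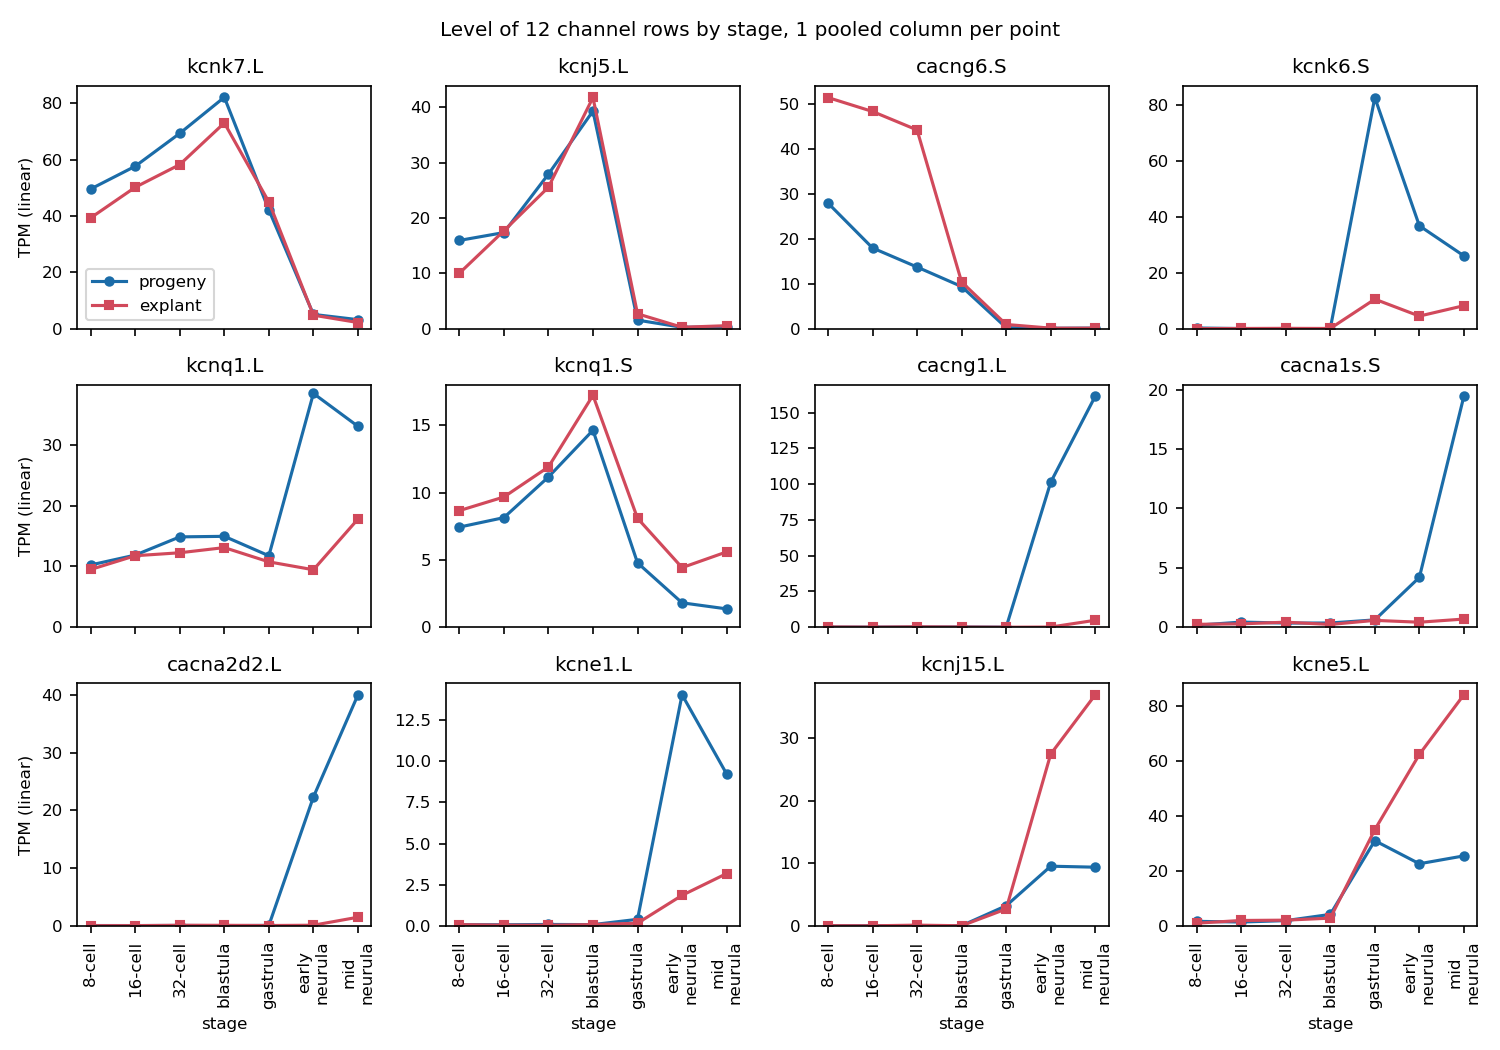
TPM on a linear axis against stage for 12 channel rows, with 1 point per pooled column, progeny in blue circles and explants in red squares. The top row shows 3 early rows that are low by the neurula and kcnk6.S, which is highest at the progeny gastrula (82.7 TPM), and the lower panels show kcnq1.S, which is low by mid neurula in progeny, and rows that climb at the neurula in progeny, in explants or in both.

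Other rows first appeared at gastrula. The 2-pore subunit row kcnk6.S, of the TWIK-2 channel, read 0.225, 0.0175, 0.0183, 0.0125, 82.7, 36.8 and 26.05 TPM in progeny and 0, 0.0509, 0.0947, 0.0521, 10.5, 4.48 and 8.21 TPM in explants. Its homeolog kcnk6.L read 0.0806, 0, 0, 0.0245, 12.7, 8.26 and 9.34 TPM in progeny and 0.0630, 0.0577, 0.119, 0.0647, 1.75, 1.93 and 4.06 TPM in explants. Both rows were near 0 up to the blastula, peaked at gastrula in progeny and were lower in explants at gastrula, with differences of -2.86 for kcnk6.S and -2.31 for kcnk6.L. At that stage 3 channel rows were lower in explants (3.42% of all rows) and 1 higher (2.2%), and kcnk6.S, kcnk6.L and cacna1d.S were the 3. In explants kcnk6.L was highest at mid neurula and kcnk6.S at gastrula.

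The partner row kcne5.L, whose product inhibits KCNQ1 channels in mammalian cells, also climbed at gastrula. It read 1.63, 1.38, 1.89, 4.16, 31.00, 22.6 and 25.5 TPM in progeny and 0.961, 1.95, 2.07, 2.80, 35.01, 62.4 and 84.2 TPM in explants. The tissues were alike at gastrula, after which progeny stayed near that level and explants went on to climb, so that the difference was 1.43 at early and 1.69 at mid neurula. Other rows that rose from blastula to gastrula in both tissues included the inward rectifier kcnj15.L, the Shaker pore kcna1.S, and the 2-pore rows kcnk1.S and kcnk12-like.L. Of these only kcnj15.L passed the limit of the rising set afterwards.

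At the neurula, the calcium channel rows that rose in progeny included the subunits that in skeletal muscle form the voltage sensor of contraction. From gastrula to early neurula 16 channel rows rose in progeny (17.7% of all rows) and 14 fell (15.7%), and from early to mid neurula 16 rose (7.77%) and 0 fell (1.48%). From blastula to mid neurula 35 rose (29.6%) and 30 fell (32.3%), of which 12 of 24 calcium channel rows rose and 5 fell, 5 of 8 sodium channel rows rose and 1 fell, and 18 of 65 potassium channel rows rose and 24 fell. The median change was 1.01 for calcium, 1.19 for sodium and -0.14 for potassium channel rows on the log2 scale. With columns rescaled by the median of ratios, 18 potassium channel rows rose and 19 fell, and the calcium and sodium counts held.

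The gamma-1 rows, which encode a subunit found with the skeletal muscle L-type channel in mammals, reached the highest levels of all channel rows. The row cacng1.L read 0.0603, 0.0508, 0.122, 0.148, 0.0328, 101 and 161 TPM in progeny and 0.196, 0.0573, 0.287, 0.118, 0, 0.120 and 4.86 TPM in explants, and cacng1.S read 0.0158, 0.0816, 0.0675, 0.0182, 0.0358, 54.3 and 106 TPM in progeny and 0.0418, 0.0601, 0.200, 0.0146, 0.0138, 0.0249 and 2.93 TPM in explants. Both were under 1 TPM in every column up to the gastrula and stepped up at the early neurula in progeny, 1 stage before a much smaller step in explants. At mid neurula the explant difference was -4.79 for cacng1.L and -4.77 for cacng1.S.

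The pore of the same channel, cacna1s.S, read 0.166, 0.434, 0.350, 0.355, 0.617, 4.20 and 19.5 TPM in progeny and 0.245, 0.284, 0.425, 0.232, 0.577, 0.422 and 0.687 TPM in explants. It rose in progeny at both neurula stages and stayed under 1 TPM in explants. The alpha2delta rows cacna2d2.L and cacna2d2.S reached 40.1 and 15.03 TPM at the progeny mid neurula against 1.49 and 0.596 TPM in explants. These levels do not show which pore the cacna2d2 product joins, and it is not counted here as a part of the muscle channel. The beta-1 rows cacnb1.L and cacnb1.S, whose product couples the voltage sensor to the release channel of muscle, reached 7.80 and 10.03 TPM against 1.27 and 0.613 TPM. All 7 rows were thus several-fold apart between tissues at mid neurula, with differences from -4.79 to -1.95.

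Other rising calcium channel rows were lower in level. The T-type pore cacna1h.L went from 0.0877 TPM at gastrula to 4.50 TPM at mid neurula in progeny and stood at 0.368 TPM in explants. The N-type pore cacna1b.S, the presynaptic calcium channel of neurons, reached 1.38 TPM in progeny and 0.407 TPM in explants, a difference under 2-fold on the scale used. The rows cacng4.L, cacng4.S and cacng5.L, of the gamma family members that accompany AMPA-type glutamate receptors, reached 3.65, 2.92 and 3.28 TPM at the progeny mid neurula. In the RefSeq annotation of assembly Xenopus_laevis_v10.1, cacng5.L, cacng4.L and cacng1.L are consecutive genes, as are cacng4.S and cacng1.S, and all 5 of these rows were rising rows. The alpha2delta row cacna2d1.L, present early, was low at the early neurula and came back to 5.25 TPM at mid neurula in progeny, while explants stood at 0.126 TPM.

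The sum of the muscle markers also climbed at the neurula in progeny. The 29 rows of the somite and muscle list summed to 321 TPM at gastrula, 5978 TPM at early neurula and 12269.9 TPM at mid neurula in progeny, against 73.7, 169 and 429 TPM in explants. At mid neurula 25 of the 29 were lower in explants and 0 higher, and the muscle calcium pump row atp2a1.L stood at 702 TPM in progeny and 14.1 TPM in explants. In explants mylpf.S, tnnc2.S, casq1.S and stac3.L were listed at 0 at gastrula and no muscle row was at 0 at either neurula stage. The 32 rows of the neuronal list summed to 371 TPM at early and 710.4 TPM at mid neurula in progeny and to 125 and 228 TPM in explants, with 23 lower and 2 higher in explants at mid neurula, isl1.L and isl1.S, and with stmn2.L listed at 0 there in explants. The part of muscle or neuronal cell number in the channel differences was not tested.

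Of the 6 rising sodium channel rows, the pore rows scn1a.L and scn1a.S, of a channel of brain neurons, reached 2.22 and 1.05 TPM in progeny against 0.280 and 0.0812 TPM in explants. The beta row scn3b.L read 0.594, 2.14 and 5.93 TPM from gastrula to mid neurula in progeny and 0.353, 3.17 and 4.89 TPM in explants, and so rose in both with a tissue difference under 2-fold.

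**Figure D3:**
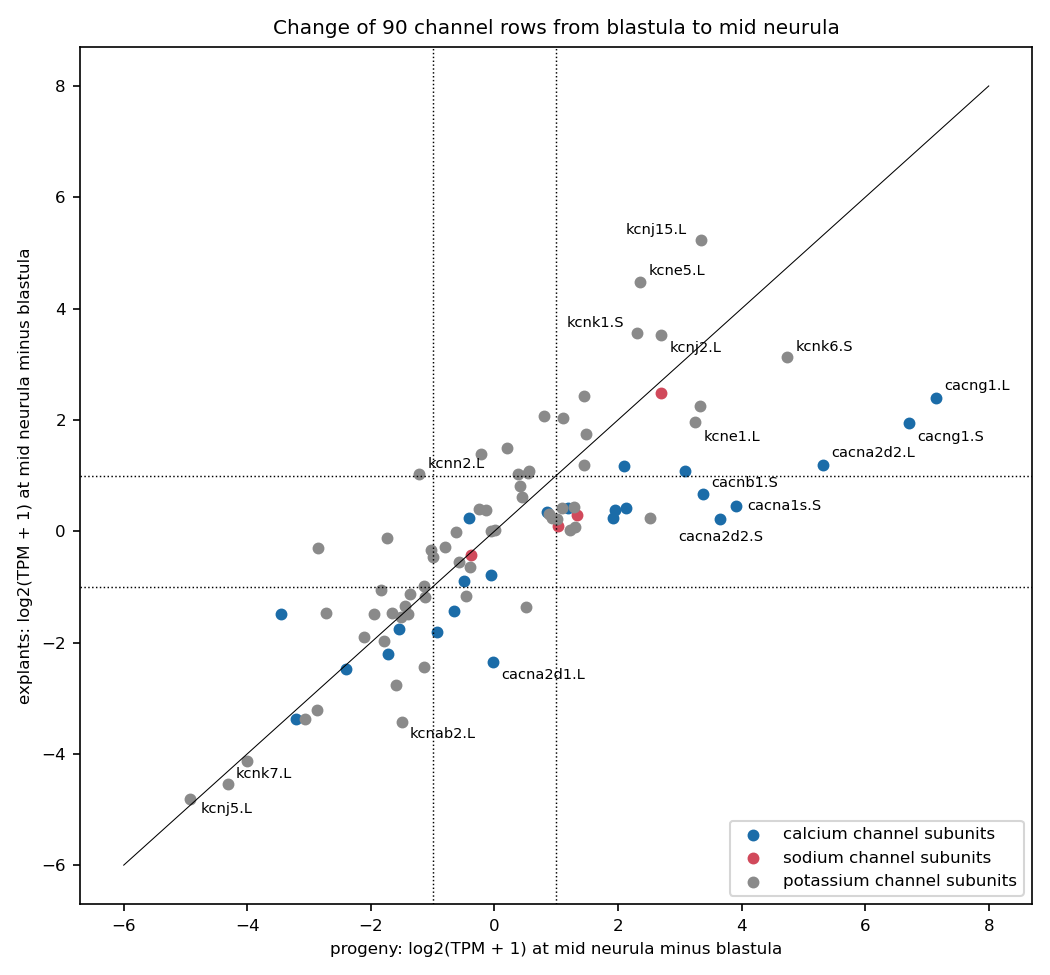
Change in log2(TPM + 1) from blastula to mid neurula in explants (vertical) against progeny (horizontal), with 1 point for each of 90 channel rows coloured by family, dotted lines at the 2-fold limits and a diagonal of equal change. Calcium channel points such as cacng1.L and cacna2d2.L lie far to the right and below the diagonal, kcnj15.L lies above it, and kcnn2.L is the point that is left of the lower limit in progeny (-1.22) and above the upper limit in explants (1.02).

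Potassium channel rows at the neurula split by subunit. The pore row kcnq1.L and the partner row kcne1.L encode the pair that forms a slow potassium channel in heart and in secretory epithelia. The row kcnq1.L read 10.2, 11.9, 14.9, 14.95, 11.8, 38.5 and 33.05 TPM in progeny and 9.50, 11.8, 12.2, 13.1, 10.8, 9.45 and 17.8 TPM in explants, and kcne1.L read 0.0730, 0.0652, 0.0833, 0.0744, 0.395, 14.04 and 9.23 TPM in progeny and 0.0745, 0.0408, 0.0360, 0.0755, 0.160, 1.85 and 3.18 TPM in explants. Both stepped up between gastrula and early neurula in progeny, where kcnq1.L had been present throughout and kcne1.L had not. At early neurula explants were lower, with differences of -1.92 for kcnq1.L and -2.40 for kcne1.L. At mid neurula the kcnq1.L difference was -0.86, under 2-fold on the scale used, and the kcne1.L difference was -1.29.

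Its homeolog kcnq1.S took the other course. It read 7.44, 8.14, 11.2, 14.6, 4.79, 1.81 and 1.36 TPM in progeny and 8.67, 9.68, 11.9, 17.2, 8.10, 4.43 and 5.60 TPM in explants. The 2 copies stood close to each other at blastula and were far apart by mid neurula in progeny, and kcnq1.S was higher in explants at mid neurula by 1.48. With the homeologs summed, the progeny change from blastula to mid neurula was 0.21 and the tissue difference at mid neurula was -0.54.

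Inward rectifiers were the potassium class with most rising rows, 6 of 8, where 27.9% of all rows were rising. Of 30 rows with such a name, 22 stayed under 1 TPM in every column. The rising rows kcnj2.S and kcnj10.S did not exceed 0.424 and 0.0687 TPM in explants and passed the minimum through progeny. The same progeny values can carry a row past the minimum and make it rising, so 6 of 8 is not read as a trait of the class. The row kcnj15.L, of a channel of kidney and other epithelia, read 0.0423, 0.0218, 0.0324, 0.0242, 3.21, 9.52 and 9.36 TPM in progeny and 0.0274, 0.00708, 0.112, 0.0134, 2.69, 27.4 and 36.9 TPM in explants, and so was higher in explants at both neurula stages. The row kcnj2.L, of the strong rectifier that sets the resting potential of muscle and heart, reached 5.62 TPM in progeny and 10.6 TPM in explants. The row kcnj13.S, of an epithelial channel, stood at 5.36 TPM in progeny and 0.255 TPM in explants at mid neurula. In explants it rose from blastula to gastrula and fell to early neurula, with a highest level of 1.21 TPM. The row kcnj10.S, of the main potassium channel of glia, was listed at 0 in all 8 cleavage columns of the 2 tissues. At mid neurula it stood at 1.48 TPM in progeny and 0.0543 TPM in explants. The row kcnj16.L, whose product joins other rectifier subunits, rose within cleavage in both tissues, with 0.131, 1.40, 1.70, 3.66, 0.424, 3.02 and 3.49 TPM in progeny and 0.249, 0.532, 2.17, 2.05, 0.739, 0.520 and 2.04 TPM in explants.

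A Shaker pore and a 2-pore channel stood above their progeny levels in explants. The row kcna4.L, a fast inactivating Shaker pore, stood at 0.801 and 0.398 TPM at the neurula stages of progeny and at 4.81 and 2.33 TPM in explants. The 2-pore row kcnk1.S read 1.56, 1.17 and 3.97 TPM from gastrula to mid neurula in progeny and 1.76, 7.78 and 10.99 TPM in explants. The explants were thus the higher tissue for both rows at both stages, although with homeologs summed the kcnk1 difference at mid neurula was 0.99. For comparison, no row of the 2-pore class was in the rising set (27.9% of all rows were). From blastula to mid neurula in progeny, 5 of its 11 rows rose (29.6% of all rows) and 1 fell (32.3%).

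The small-conductance row kcnn2.L was the single channel row that fell in one tissue and rose in the other from blastula to mid neurula. It read 2.96, 3.69, 3.08, 3.09, 0.840, 1.17 and 0.758 TPM in progeny and 3.65, 3.52, 3.00, 2.80, 1.19, 10.4 and 6.72 TPM in explants. The tissues were alike up to the gastrula and parted at the early neurula, where explants were higher by 2.39. The call rests on the scaling and on the copy, since the progeny change was -0.88 with columns rescaled by the median of ratios and the explant change was 0.26 with the homeologs summed. Its homeolog kcnn2.S fell in both, to 0.303 TPM in progeny and 0.365 TPM in explants. The BK pore kcnma1.L was low at the early neurula of both tissues and came back to 2.51 TPM at mid neurula in progeny, while explants stood at 0.182 TPM.

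Set against the explant table, the rising set was not carried over as a whole. Of the 30 rows that rose over gastrula in progeny, 10 did so in explants, which is 33.3%, against 54.8% of all rows that rose in progeny by the same rule. Among all 97 channel rows 18 rose over gastrula in explants (24.2% of all rows). The 10 included cacna2d2.L, cacng1.L, cacng1.S, cacng5.L, kcne1.L, kcnj15.L, kcnj2.L and scn3b.L. At mid neurula 19 of the 30 were lower in explants and 3 higher, kcnj15.L among them. These are 63.3% and 10%, against 34.1% and 13.8% of all rising rows. The progeny mid neurula column entered both the sorting and this difference. Lower values in explants are therefore partly built in, for the channel rows and for all rising rows.

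Explants had channel rows of their own rise as well. From blastula to mid neurula 26 rows rose (26.4% of all rows) and 30 fell (34.3%) in explants, and 19 rose and 25 fell in both tissues. The rows that rose in explants and not in progeny were kcna1.L, kcna4.L, kcna4.S, kcne5.S, kcnk16.L and kcnmb3.S, besides kcnn2.L, and 16 rows rose in progeny and not in explants. The overlap between tissues was not counted over all rows, so these overlap counts cannot be read as particular to channel rows. From gastrula to early neurula 11 rose (16.1%) and 16 fell (20.5%) in explants, and from early to mid neurula 8 rose (7.49%) and 0 fell (1.24%). The differences between these changes were not tested, since each group is 1 column.

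Between tissues, 8 channel rows were higher and 18 lower in explants at early neurula (10.9% and 12.9% of all rows), and 10 were higher and 25 lower at mid neurula (12% and 13.6%). By family at mid neurula, 12 of 24 calcium channel rows were lower in explants and 0 higher, with a median of -1.25. Of these 12, cacna1h.L, cacna1s.S, cacna2d2.S, cacnb1.S, cacng4.L and cacng4.S stayed under 1 TPM in every explant column. They passed the minimum through progeny, so their lower explant levels are partly built in, and 12 of 24 is not read as a trait of the family. Sodium channel rows were lower in 2 of 8 and higher in 2, with a median of -0.23, and potassium channel rows lower in 11 of 65 and higher in 8, with a median of -0.01. The median over all rows was -0.13 at this stage. With columns rescaled by the median of ratios, the same counts held for calcium and sodium, and 10 potassium channel rows were lower and 9 higher.

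**Figure D4:**
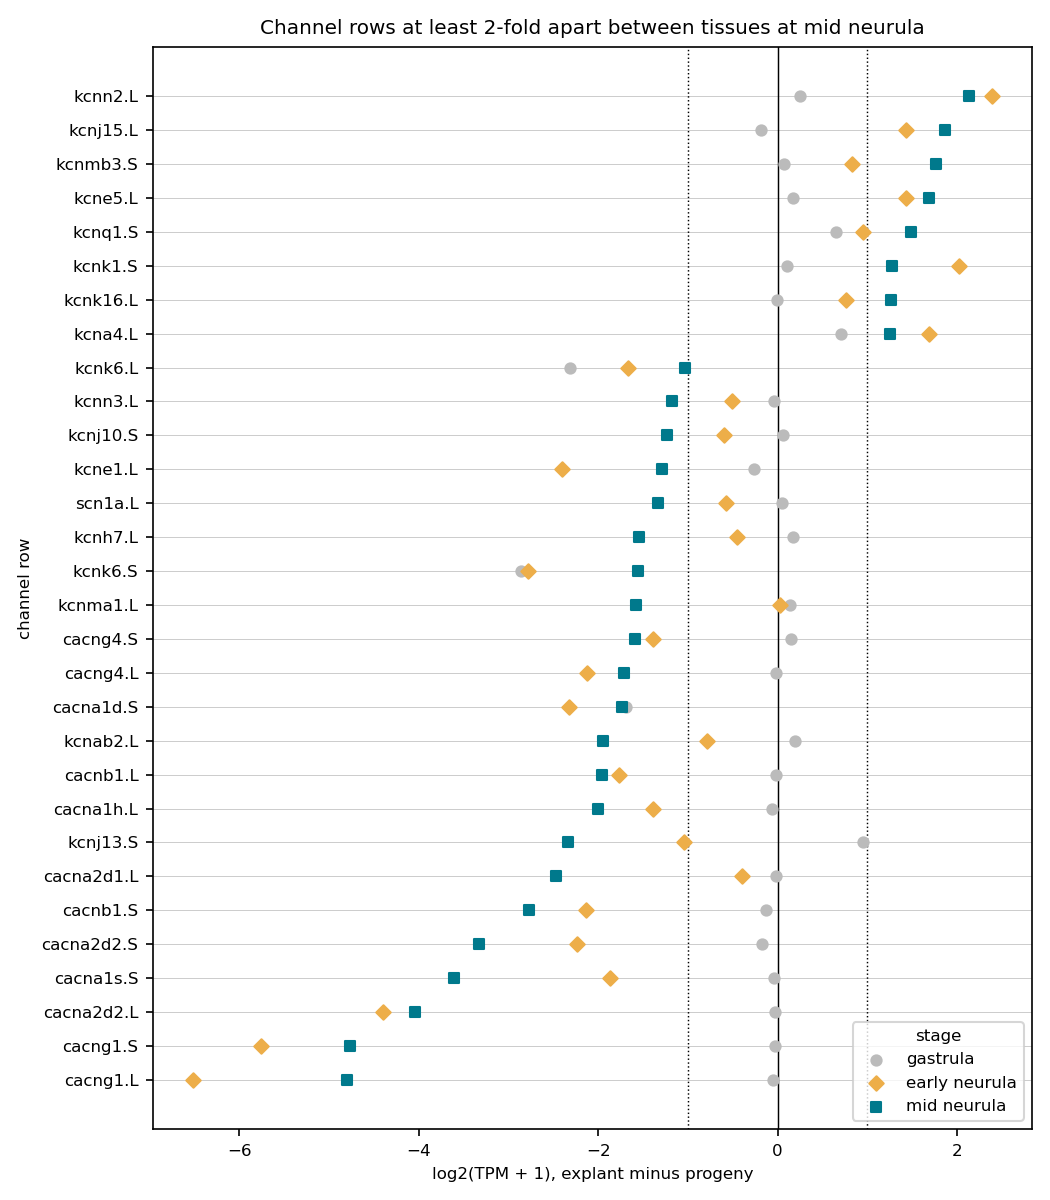
Explant minus progeny difference in log2(TPM + 1) at gastrula (grey circles), early neurula (orange diamonds) and mid neurula (teal squares) for 30 channel rows that passed 2-fold at mid neurula, with dotted lines at the 2-fold limits. Most rows lie near 0 at gastrula, kcnk6.S, kcnk6.L and cacna1d.S are already lower in explants there, and cacng1.L has the lowest value at both neurula stages.

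Markers of some other cell types were higher in explants as well. At mid neurula the 16 rows of the epidermis list summed to 3036 TPM in progeny and 12277 TPM in explants, with 13 higher and 0 lower in explants. The 20 ionocyte rows summed to 163 and 1252 TPM with 17 higher and 0 lower, and the 16 ciliated cell rows to 157 and 1476 TPM with 15 higher and 0 lower. None of these rows was at 0 in either tissue at mid neurula. The 16 neural crest rows went the other way, with sums of 707 and 56.8 TPM, 16 lower and 0 higher, and none at 0. At gastrula the epidermis sums were already 565 TPM in progeny and 1276 TPM in explants, with 8 rows higher in explants and 0 lower. The ionocyte sums were then 158 and 476 TPM (2 higher, 0 lower), and the ciliated cell sums 86.7 and 212 TPM (4 higher, 0 lower). None of kcnj15.L, kcne5.L, kcnk1.S, kcna4.L and kcnn2.L was 2-fold apart between tissues at gastrula. The part of these cell types in the levels of these channel rows was not tested.

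Among other transport genes, 15 of 35 rows for pumps, exchangers and chloride channels rose and 9 fell from blastula to mid neurula in progeny, and 8 rose and 10 fell in explants. Of all rows, 29.6% rose and 32.3% fell in progeny over this span, and 26.4% rose and 34.3% fell in explants. Between tissues at mid neurula, 12% of all rows were higher and 13.6% lower in explants. At mid neurula 12 of the 35 were lower and 3 higher in explants, with atp1b2.S, a beta subunit of the sodium pump, at 1.08 TPM in progeny and 6.62 TPM in explants. On the list of other channels and channel partners, 15 of 38 rows rose and 11 fell in progeny, 8 rose and 12 fell in explants, and 12 were lower and 5 higher in explants at mid neurula. The release channel of muscle, ryr1.L, stood at 37.9 TPM in progeny and 0.826 TPM in explants, and ank1.L, a membrane anchor protein, at 36.3 and 0.887 TPM. The sodium channel of absorptive epithelia, scnn1a.L, went the other way, with 11.99 TPM in progeny and 47.3 TPM in explants. The genes ryr1, stac3, jph1 and atp2a1 are on more than 1 of these lists.

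Homeologs could be compared in 24 pairs with both rows among the 97, while 37 members had a partner row under 1 TPM and 12 had none in the tables. In progeny from blastula to mid neurula, both copies passed 2-fold in the same direction in 13 pairs, in opposite directions in 2 (kcnq1 and kcnn3), 1 copy passed in 7 and neither in 2. In explants the counts were 11, 1 (kcnn2), 9 and 3. The row kcnn3.S fell in progeny from 3.39 to 0.387 TPM, while kcnn3.L went from 0.104 to 1.58 TPM. For the tissue difference at mid neurula, 7 pairs passed together, 0 in opposite directions, 11 with 1 copy and 6 with neither. In 17 pairs both copies belonged to the same set (early, rising, both or neither). Pairs of other genes were not counted, so whether these numbers are usual for homeologs cannot be said.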

How the data were processed

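RNA of 42 samples was sequenced, and the authors deposited 2 tables, 1 for progeny and 1 for explants, with 7 columns each. Per the file headers the deposited values are TPM, made by the authors, with the 3 samples of a group already combined into 1 column. TopHat, Bowtie2, Cufflinks and Cuffdiff were used, per the submitters' processing notes. The sources used here give neither the tool versions, nor the genome build, nor how samples were combined. The tissue of a table was taken from its name and the stage from the column header.

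From these values log2(TPM + 1) and differences between columns were computed with Python 3.11.15, pandas 2.3.3 and numpy 2.4.6. Rows were kept when 1 column reached 1 TPM, and a difference of at least 1 on the log2 scale was counted as a change in each of 20 comparisons. Since a group is 1 pooled column and depth is unknown, no test, interval or p-value is given. The counting code was run on simulated data without noise, with large changes set in rows of higher level. This checks the code only and says nothing on the calls for low rows. Alternatives were a pseudocount of 0.1 TPM, scaling by the median of ratios over 23814 rows above 0 in all columns, a minimum of 5 TPM, no minimum, summed homeologs, and 2 TPM as the early limit.

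The channel rows and the gene lists were chosen with earlier results of these data known. Rows named are those with the highest levels or largest changes of at least 5 TPM, their homeologs, the 4 highest cleavage means of each role and the rows nearest each limit. Further rows of a role were named after their values were seen. Of the 97 rows, 72 were found in the RefSeq gene table of assembly Xenopus_laevis_v10.1, which was used for neighbouring genes only. Sequences are not used here. A few of the 97 rows entered the counts and sums, and are neither named nor drawn here.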

Additional observations from a re-analysis of the deposited data

Results flagged for a closer look

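The small-conductance potassium channel row kcnn2.L moved in opposite directions in the 2 tissues from blastula to mid neurula. It changed by -1.22 in progeny, from 3.09 to 0.758 TPM, and by 1.02 in explants, from 2.80 to 6.72 TPM, on the log2(TPM + 1) scale. Both changes are close to the 2-fold limit, each rests on 1 pooled column per group, and the difference between them was not tested.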

How the results depend on the processing

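No paired analysis was possible because each group is 1 pooled column. No sample was left out in turn for the same reason. Depth is unknown and sets no limit here for low rows. Shares of all rows are given for the main setting only. Counts of channel rows under the other settings, here and above, are therefore not read as particular to channel rows.

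With a pseudocount of 0.1 TPM, which counts changes of low rows, 34 of the 43 counts of channel rows moved by more than 1.5 times. In progeny 4 rows rose and 3 fell from 8-cell to 32-cell, 4 rose to blastula, 21 rose and 40 fell to gastrula, 30 rose and 28 fell to early neurula, and 34 rose and 1 fell to mid neurula. In explants 15 rose and 2 fell from 8-cell to 32-cell, 3 rose from 16-cell to 32-cell, 8 rose and 7 fell to blastula, 28 rose and 36 fell to gastrula, 21 rose and 34 fell to early neurula, 17 rose and 6 fell to mid neurula, and 42 rose over the whole span from blastula. Explants were lower than progeny for 14 rows at 8-cell, higher for 2 and lower for 7 at 16-cell, higher for 4 and lower for 8 at 32-cell, higher for 2 and lower for 12 at blastula, higher for 7 and lower for 7 at gastrula, higher for 22 and lower for 32 at early neurula, and higher for 18 and lower for 43 at mid neurula.

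With a minimum of 5 TPM, which leaves 39 rows, 20 counts moved. From blastula to mid neurula 19 rose and 18 fell in progeny and 15 rose and 18 fell in explants. In progeny 0 rose from 8-cell to 32-cell and 0 from 32-cell to blastula, and 5 rose and 16 fell to gastrula. In explants 0 rose from 16-cell to 32-cell, 0 to blastula, 6 rose and 13 fell to gastrula, and 7 rose and 10 fell to early neurula. Explants were lower for 2 rows at 8-cell, for 1 row at 16-cell and at 32-cell, and for 15 rows at mid neurula, and higher for 0 at gastrula and 5 at early neurula. Without a minimum the 40 counts could not change, since a row under 1 TPM in every column cannot differ by 1 in log2(TPM + 1). That setting is therefore no check of the counts.

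Scaling by the median of ratios moved the median of all rows by 0.26 in progeny and 0.36 in explants from blastula to mid neurula, and by 0.27 and 0.23 from blastula to gastrula. With this scaling 92 channel rows reached 1 TPM. In progeny 14 rows then fell from blastula to gastrula, 0 rose from 32-cell to blastula and 1 fell from 8-cell to 32-cell. In explants 11 fell from blastula to gastrula, 1 rose and 2 fell from 8-cell to 32-cell, 0 rose from 16-cell to 32-cell or from 32-cell to blastula, and 1 fell from early to mid neurula. Of 340 values of named rows, 327 kept their call, 11 dropped under 2-fold and 2 passed it, and the kcnn2.L change in progeny was -0.88. Starting from 16-cell in place of 8-cell, 1 row rose in explants to 32-cell.

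With homeologs summed, 1 row fell from 32-cell to blastula and 5 rose from early to mid neurula in explants, and explants were higher for 1 row at 8-cell and 0 at 16-cell. The sign turned for kcnn2.S in explants from blastula to mid neurula (0.26), for kcnq1.S in progeny over the same span (0.21) and for kcnq1.S between tissues at mid neurula (-0.54), in each case because the other copy entered the sum. With 2 TPM as the early limit, the number of early rows stayed within 1.5 times. The number of rising rows does not use that limit and could not change.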
